A study of Bos taurus with 8 samples.

Results

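Among 30756 cell barcodes of bovine peripheral blood mononuclear cells (PBMCs), 493 had more than 3000 genes with a transcript molecule and met limits on marker genes of monocytes, plasma cells and dividing cells. They were chosen on raw unique molecular identifiers (UMIs, one per captured transcript molecule): no UMI of CD14 or CSF1R, at most 4 UMIs of MZB1, and at most 2 UMIs of MKI67, TOP2A and CENPF together. CD14 is the LPS co-receptor of monocytes, CSF1R the receptor for macrophage colony-stimulating factor, MZB1 a chaperone of antibody-secreting cells, and the other 3 genes mark cells in division. These high-gene cells were set beside 21389 mid-range cells, which had 1000 to 3000 genes and met the same marker limits. Because gene number and these markers made the choice, a difference between both sets in gene number, UMIs or these 6 genes is part of the choice and not a finding, and every gene comparison between them is given as a description without a test.

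The blood came from 4 lactating Holstein females aged 2 years and was joined into 1 pool, which was then split into 4 portions. 1 portion stayed without lipopolysaccharide (LPS, a cell wall component of Gram-negative bacteria) and the others received LPS at 2 µg/ml, lasting 2 h, 4 h and 8 h, before the mononuclear cells were separated, and each portion gave 1 single-cell RNA library. How long the portion without LPS was kept is not given in the sources used here. The treatment was of whole blood, so the lymphocytes met LPS together with the other blood cells. With 1 library per portion, no difference between times has a replicate, no p-value is given, and the library and the treatment cannot be told apart. The intervals in the text are exact 95% intervals and cover counting error only. Groups of 4 values are in the order no LPS, 2 h, 4 h and 8 h throughout.

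Resting T and B lymphocytes are small cells with little cytoplasm and little RNA. When they are activated through an antigen receptor, a cytokine receptor or a Toll-like receptor they grow into blasts, in which genes of glycolysis, protein folding and ribosome assembly are raised before division, while genes that keep lymphocytes quiescent and recirculating, such as TXNIP and KLF2, are lowered. In droplet libraries, a barcode with many genes may also hold 2 cells in 1 droplet (a doublet), and dendritic cells and plasma cells too carry more RNA than a resting lymphocyte.

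High-gene cells made up 0.872%, 0.815%, 2.23% and 4.04% of the barcodes of the 4 libraries, that is 74 of 8490, 85 of 10429, 178 of 7977 and 156 of 3860. Their share was larger at 4 h (1.92 to 2.58%) and 8 h (3.44 to 4.71%) than without LPS (0.685 to 1.09%) or at 2 h (0.652 to 1.01%), with no overlap between the intervals of the later and the earlier libraries. All 2091 barcodes with more than 3000 genes were spread differently, with 619, 511, 542 and 419 barcodes. A CD14 UMI was carried by 421, 222, 201 and 203 of them, and 178, 222, 192 and 87 were over the limit on division genes, with barcodes that failed on both counted in both. A single UMI of CD14 or CSF1R kept 45 barcodes out, of which 25 were marked as T or B cells. The 9230492 UMIs of the high-gene cells gave library medians of 17124 to 18123.5 UMIs per cell where LPS was given and 16920.5 without it, against 4296.5 to 5729 in mid-range cells. The mid-range cells were deeper in the same later libraries, with medians of 4296.5, 4358, 4977.5 and 5729 UMIs and 1417, 1424, 1558 and 1723 genes, and the part of depth in the share of high-gene cells was not tested. Mitochondrial transcripts took at most 5.17% of the UMIs of a high-gene cell. Between library pairs, 93 barcode sequences occurred in both libraries, and none of them belonged to a high-gene cell in both.

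The label of these cells as non-monocytes was checked with a list of 13 monocyte markers, of which 12 are in the files. Besides CD14 and CSF1R, which the choice set to 0, CD163 also had no UMI in any of the 493 cells. Read with a limit of 3 counts in place of an exact interval, this allows a share of up to 0.609% of cells with a UMI. The summed level of the list was 344, 154, 172 and 140.5 CPM (UMIs scaled to a library total of 1000000) in high-gene cells. In mid-range cells it was 164, 146, 156 and 154 CPM, so in this sum only the library without LPS stood apart. The median log2 ratio of high-gene to mid-range cells, over the 7 list genes with at least 200 UMIs, was 0.41, -0.18, 0.48 and -0.20. By this median the 4 h library was raised as well. With the same number of UMIs drawn from every cell, 6 of 8 list genes with enough counts were seen in a larger share of high-gene cells. The other 2 had a smaller share, and 0 of the 8 were larger in each library. LYZ, the lysozyme of myeloid cells, had 59, 16, 29 and 25 UMIs and came from at most 8.11% of the cells of a library. Granulocyte markers summed to 31.6, 13.9, 35.7 and 58.3 CPM against 309, 58.7, 34.2 and 263 CPM, lower in high-gene cells in 3 of 4 libraries. Markers of dendritic cells summed to 123, 129.8, 171 and 188 CPM against 77.4, 76.4, 91.1 and 80.9 CPM and were higher in high-gene cells in all 4 libraries. BATF3, a transcription factor that activated lymphocytes also express, gave 60.2, 93.4, 138 and 162 CPM of that sum against 37.3, 43.5, 65.6 and 53.5 CPM. Of the 9 dendritic cell markers in the files only 2 had at least 200 UMIs, and CLEC9A and XCR1 had none in high-gene cells. A small group with myeloid genes was nevertheless present and is described with the clusters.

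Lymphocyte identity was read from UMIs of the CD3 chains CD3D, CD3E and CD3G, part of the T cell receptor complex, and of MS4A1, CD79A and CD79B, the CD20 antigen and the signalling chains of the B cell receptor. Of the 493 cells, 140 were T-marked (at least 90% of at least 5 such UMIs from the CD3 chains), 183 were B-marked (at most 10% from the CD3 chains), 119 were mixed and 51 had fewer than 5 such UMIs. The classes are ranges and not cell types, and within 5 percentage points of a limit lay 7 cells below and 21 above the upper one, and 10 below and 14 above the lower one. T-marked cells were 32.4%, 37.6%, 28.1% and 21.8% of the high-gene cells of the 4 libraries and B-marked cells were 32.4%, 36.5%, 33.1% and 44.2%. The B-marked share at 8 h had an interval of 36.3 to 52.4%, which overlaps that of each other library. In mid-range cells the T-marked share was 22.9%, 18.7%, 23.2% and 32.8% and the B-marked share 23.8%, 23.5%, 22.1% and 18.6%. With 2000 UMIs drawn from every cell both shares were smaller in high-gene cells, and 0.811% of high-gene and 2.81% of mid-range cells were then T-marked and 5.68% and 9.96% B-marked. Mixed cells were 20.3%, 18.8%, 27% and 25.6%, against 6.32%, 4.46%, 4.11% and 7.22% of mid-range cells. The median CD3 level of T-marked cells was 7.72 per 10000 UMIs in high-gene cells and 12.5 in mid-range cells, and the median B level of B-marked cells was 10.6 against 20.7. The minimum of 5 UMIs asks more of a cell with few UMIs, so the mid-range cells in a class needed a higher marker level per UMI, and the lower medians of high-gene cells are part of the rule and not a finding. Mixed high-gene cells had medians of 3.3 and 6.04 per 10000 UMIs, both below the level of the class with that marker.

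**Figure D1:**
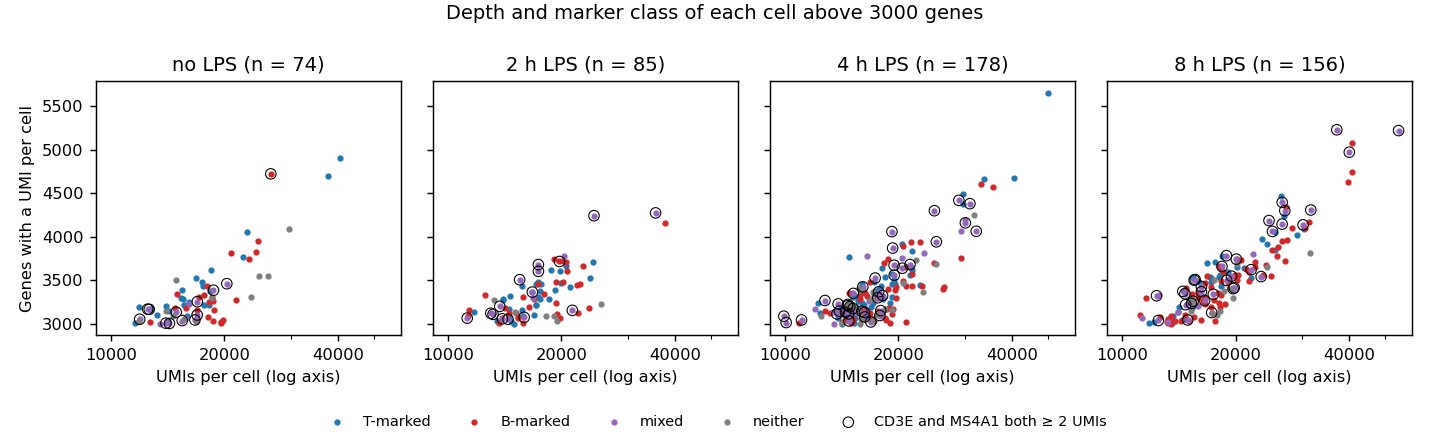
Genes with a UMI against UMIs per cell (log axis) for each of the 493 cells above 3000 genes, 1 panel per library, with the colour giving the marker class and a ring marking cells with at least 2 UMIs of both CD3E and MS4A1. The 100 ringed cells are spread over the range of depth, and 96 of them are mixed cells.

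Cells with at least 2 UMIs of CD3E and at least 2 of MS4A1, a T and a B cell gene that 1 lymphocyte does not normally share, were counted as doublets. There were 100 among the 493 high-gene cells, or 20.3% (16.8 to 24.1%), and 288 among the 21389 mid-range cells, or 1.35% (1.2 to 1.51%). By library, 13 of 74, 15 of 85, 38 of 178 and 34 of 156 high-gene cells met the definition, which gave shares of 17.6%, 17.6%, 21.3% and 21.8%, with overlapping intervals. In mid-range cells the shares were 1.37%, 1.33%, 1.46% and 1.02%. The count reads depth as well as identity, since a deeper cell shows both genes more often. Each cell was therefore thinned at random to 2000 UMIs, and the share with at least 1 UMI of both genes was then 8.11% (5.86 to 10.9%) in high-gene and 1.49% (1.33 to 1.66%) in mid-range cells. The share was larger in high-gene cells in all 4 libraries at this equal depth, with 6.76%, 10.6%, 6.74% and 8.97% against 1.68%, 1.62%, 1.11% and 1.67%.

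The share of such cells was larger in most bands of more genes. It was 0.1% (11 of 10956, 0.0501 to 0.18%) at 1000 to under 1500 genes, 5.04% (126 of 2498, 4.22 to 5.98%) at 2000 to under 2500 genes and 11.5% (99 of 861, 9.44 to 13.8%) at 2500 to 2900 genes. Just outside the limit, above 2900 and up to 3000 genes, it was 14.9% (18 of 121, 9.06 to 22.5%), and just inside, above 3000 and up to 3100 genes, it was 18.8% (18 of 96, 11.5 to 28%). Above 3100 and up to 3500 genes it was 17.8% (43 of 242, 13.2 to 23.2%), and above 3500 genes 25.2% (39 of 155, 18.5 to 32.8%). Thinned to 2000 UMIs the order was less steady, with 9.92% above 3100 and up to 3500 genes and 5.16% above 3500. Of the 119 mixed high-gene cells, 96 met the CD3E and MS4A1 definition. An MS4A1 UMI was held by 5 of 140 T-marked cells and a CD3E UMI by 16 of 183 B-marked cells. Both genes entered the choice of the classes, so these low counts are part of the rule and not a finding. Doublets of 2 T cells or of 2 B cells cannot be seen with these genes and were not counted.

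**Figure D2:**
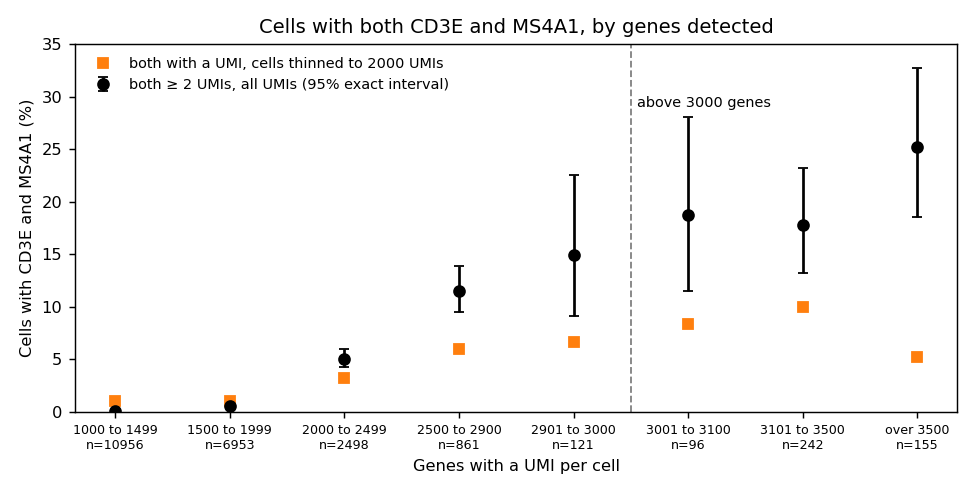
Percent of cells with both CD3E and MS4A1 against the number of genes with a UMI, for cells of the 4 libraries that met the marker limits. Black points count at least 2 UMIs of both genes with exact 95% intervals and reach 25.2% above 3500 genes, while orange squares count at least 1 UMI of both genes after thinning to 2000 UMIs and lie between 0.999% and 9.92%.

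At equal depth, high-gene cells differed little from mid-range cells in how many genes their UMIs covered. With 2000 UMIs drawn from every cell, a median of 852 (848 to 861) genes was seen in high-gene and 826 (824 to 827) in mid-range cells, with 46 mid-range cells of fewer UMIs left out. The direction differed between classes. T-marked high-gene cells covered 863 (854 to 876) genes against 813 (810 to 816), and B-marked ones 841 (829 to 852) against 875 (871 to 879). The mixed cells had 862 (836 to 881), close to the T-marked ones.

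Genes of quiescence and recirculation were seen in fewer of the high-gene cells. Of 16 such genes, all 16 had a smaller share of cells with a UMI at 2000 UMIs in the high-gene cells of the 4 libraries together, and 12 were smaller in each of the 4 libraries. Over all 9948 genes seen in at least 50 cells at this depth, 50.3% had a smaller share and 15.7% a smaller one in each library, while 49.7% had a larger share and 11.2% a larger one in each library. High-gene cells had medians of 1.77 T and 4.16 B marker UMIs per 10000 UMIs, against 4.5 and 0 in mid-range cells. The contrast thus mixes T and B cells in unlike parts, and the part of this in the 16 genes was not tested. Counts within each class are given below. TXNIP, a thioredoxin inhibitor that restrains glucose uptake, was seen in 6.76%, 5.88%, 6.18% and 8.97% of high-gene cells and 20.1%, 17%, 14.3% and 14.4% of mid-range cells. TSC22D3, a glucocorticoid-induced leucine zipper, was seen in 20.3%, 15.3%, 17.4% and 21.2% against 45.7%, 38.9%, 37.4% and 39.9%. CXCR4, the receptor for CXCL12, was seen in 48.6%, 48.2%, 44.4% and 44.9% against 64%, 66%, 67.6% and 67.2%. For each of these 3 genes the ranges of the 4 libraries did not overlap. In summed UMIs the list had a median log2 ratio of -0.76 between high-gene and mid-range cells, against -0.028 over all 9534 genes tested, where a ratio compares CPM of the summed UMIs with 1 CPM added to both, in genes with at least 200 UMIs. PIK3IP1, an inhibitor of PI3 kinase, was the 1 gene of the list at least 2-fold lower in all 4 libraries. Over all genes tested, 31 (0.325%) were at least 2-fold lower and 28 (0.294%) at least 2-fold higher in all 4 libraries. Against cells of 2000 to 3000 genes in place of 1000 to 3000, 3 were lower and 2 higher, of which 3 and 1 were among the former genes.

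Of the metabolic and folding genes, most were seen in a larger share of them, to be read against the 49.7% of all genes. Of 12 glycolysis genes with enough counts, 11 had a larger share in high-gene cells, 7 of them in each library, and SLC2A3, a glucose transporter, had a smaller one (4.87% against 8.74%). ENO1, the enolase, was seen in 75.7%, 80%, 75.3% and 74.4% against 52.9%, 55.7%, 62% and 57.2%. PGK1, phosphoglycerate kinase, was seen in 17.6%, 22.4%, 24.7% and 28.8% against 12.8%, 12.1%, 13.9% and 12.8%. All 16 genes of nutrient uptake and protein synthesis had larger shares, 9 of them in each library, such as SLC1A5, a glutamine transporter (8.32% against 3.47%), and SHMT2, a mitochondrial enzyme of one-carbon metabolism (11.6% against 5.21%). Of 15 chaperones, 11 had larger shares, 7 of them in each library. HSPE1, the mitochondrial co-chaperonin, was seen in 44.6%, 42.4%, 36.5% and 49.4% against 23.6%, 25.2%, 25.3% and 26.5%, while HSPA1A, the heat-inducible chaperone, was seen in fewer cells (2.84% against 4.42%). The median log2 ratios of summed UMIs were 0.51 for glycolysis, 0.43 for nutrient uptake and protein synthesis, 0.46 for chaperones and 0.36 for ribosome assembly. No gene of these 4 lists was past 2-fold in all 4 libraries. These values too mix T and B cells in unlike parts, so the T-marked and B-marked cells were then compared on their own.

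Of 14 B cell markers, 11 were seen in a smaller share of B-marked high-gene than B-marked mid-range cells at equal depth, 7 of them in each library. Over all 7649 genes seen in at least 50 B-marked cells, 59.9% had a smaller share and 17.2% a smaller one in each library, while 40% had a larger share and 5.39% a larger one in each library. The class rule keeps mid-range cells with more of its 3 B cell genes per UMI, and for the other B cell genes, which go with them, this rule and the cells cannot be told apart. CD79A was seen in 25%, 22.6%, 15.3% and 14.5% of B-marked high-gene cells and 51.1%, 40.9%, 34.3% and 37.5% of B-marked mid-range cells, and CD79B in 37.5%, 35.5%, 32.2% and 24.6% against 62.2%, 59%, 51% and 42.7%. Both genes entered the choice of the class, so their lower shares are not a finding. VPREB3, a protein bound to immature B cell receptor chains, did not enter it and was seen in 25%, 19.4%, 6.78% and 10.1% against 42.4%, 35.2%, 31.9% and 34%. All 8 genes of the MHC class II list with enough counts had smaller shares, 4 of them in each library, for example BOLA-DRA, the class II alpha chain (91.7%, 90.3%, 83.1% and 81.2% against 96.9%, 97.8%, 96.3% and 90.1%). Interferon-stimulated genes were seen in fewer cells for 16 of 23, 8 of them in each library. Of 14 quiescence genes, 10 had smaller shares, 6 of them in each library, and 4 had larger ones. IL7R, a gene of this list, was at least 2-fold higher in summed UMIs in all 4 libraries and came from 47 of 183 cells. Its mean log2 ratio was 1.5 ± 0.77 (SD, 4 libraries).

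Most ribosome assembly genes had larger shares in the same B-marked cells. NPM1, a nucleolar protein of ribosome assembly, was seen in 45.8%, 48.4%, 67.8% and 69.6% against 32.9%, 45.3%, 48.7% and 51.6%, and 17 of 20 ribosome assembly genes had larger shares, 5 of them in each library. TPI1, triosephosphate isomerase, was seen in 44.8% (82 of 183 cells, 37.5 to 52.3%) against 28.6%. HSPD1, the mitochondrial chaperonin, was seen in 58.5% (107 of 183 cells, 51 to 65.7%) against 40.1%. Of 25 activation genes, 10 had larger shares, 4 of them in each library, beside 40% and 5.39% of all genes. The other 15 had smaller shares, 2 of them in each library. BCL2A1, an inhibitor of apoptosis induced by NF-kappaB, was among the 10 and was seen in 50%, 77.4%, 74.6% and 59.4% against 23.5%, 59%, 48.1% and 32.8%. MCM2, a subunit of the helicase loaded on DNA before replication, was past 2-fold, at 30.7, 8.75, 13.6 and 49.4 CPM against 3.86, 3.46, 3.73 and 5.32 CPM with a mean log2 ratio of 2.11 ± 0.88 (SD, 4 libraries), and came from 41 of 183 cells. Against B-marked cells of 2000 to 3000 genes its mean log2 ratio was 1.97 and it was not past 2-fold in each library. At equal depth, 5 of 12 genes of the G1 and S phases had larger shares and 7 smaller ones, and 0 were larger in each library. The 2 h library stood apart, with median log2 ratios of -0.095 for ribosome assembly, -0.23 for nutrient uptake and protein synthesis, -0.016 for chaperones and -0.20 for the G1 and S phase genes, beside -0.09 over all genes. Cells with more than 2 UMIs of the 3 division genes had been left out by the choice. In summed UMIs, 6 of 7207 genes (0.0833%) were at least 2-fold higher and 23 (0.319%) at least 2-fold lower in all 4 libraries. Against B-marked cells of 2000 to 3000 genes, 1 was higher, with 0 shared with the former 6, and 1 was lower, which was among the former 23.

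In T-marked cells, 13 of 16 quiescence genes had smaller shares in high-gene cells, 7 of them in each library, and 10 of 12 glycolysis genes larger ones, 4 of them in each library. Over all 7622 genes seen in at least 50 T-marked cells, 47% had a smaller share and 10.4% a smaller one in each library, while 52.8% had a larger share and 9.77% a larger one in each library. IL7R, the interleukin 7 receptor, was seen in 41.7%, 50%, 62% and 55.9% of T-marked high-gene cells and 71.7%, 74.1%, 74.3% and 69.7% of T-marked mid-range cells, and TCF7, a transcription factor of naive and memory T cells, in 16.7%, 21.9%, 18% and 17.6% against 31.5%, 26.7%, 27.2% and 28.6%. The class rule keeps mid-range cells with more CD3 chain UMIs per UMI. For IL7R, TCF7 and other T cell genes that may go with the CD3 chains, this rule and the cells cannot be told apart. CCND3, a G1 cyclin, was seen in 25%, 18.8%, 6% and 23.5% against 38.7%, 32.5%, 31.8% and 37.7%. Most of its list went the other way, since 8 of 13 genes of the G1 and S phases had larger shares, 1 of them in each library. The other 5 had smaller shares, 3 of them in each library. The median log2 ratios of this list were 0.81, 0.71, 0.39 and -0.39 in the 4 libraries. ENO1 was seen in 79.2%, 90.6%, 70% and 70.6% against 51.1%, 53.1%, 59.5% and 52.2%. Ribosome assembly genes did not show the direction seen in B-marked cells, since 14 of 20 had smaller shares, 4 of them in each library, and their median log2 ratio was -0.098 against 0.32 in B-marked cells. Interferon-stimulated genes differed in direction too, with larger shares for 20 of 24 in T-marked cells, 4 of them in each library. In B-marked cells 16 of 23 had smaller shares. Whether both classes differ in either list was not tested.

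Of 10 actin and tubulin genes, 7 had larger shares in these T-marked cells at equal depth, 6 of them in each library. This and the list counts below are to be read against the 52.8% of all genes with a larger share, and 9.77% in each library. ACTB, the cytoskeletal beta actin, had 9969, 8698, 8284 and 8581 CPM against 4125, 3597, 3359 and 3073 CPM, a mean log2 ratio of 1.33 ± 0.10 (SD, 4 libraries), and ACTG1 had a mean log2 ratio of 1.19 ± 0.10 (SD, 4 libraries). ACTG1 was seen in 99.3% (139 of 140 cells, 96.1 to 100%) at equal depth against 85.4%. All 7 cytotoxic and NK cell markers with enough counts were seen in larger shares, 4 of them in each library. CCL5, a chemokine of effector T and NK cells, was seen in 37.5%, 34.4%, 36% and 20.6% against 13%, 10.1%, 10.6% and 8.32%. NKG7, a protein of cytotoxic granules, was seen in 16.7%, 28.1%, 18% and 8.82% against 8.65%, 5.11%, 5.68% and 5.08%. Of 12 T cell markers, 5 had larger shares, 1 of them in each library, and 7 had smaller ones, 3 of them in each library. LCK, the kinase that starts T cell receptor signalling, was seen in 50%, 40.6%, 40% and 41.2% against 29.4%, 25.8%, 24.3% and 24.5%. CD3E, which chose the class and is lower by its rule, was seen in fewer cells (65% against 89.4%). For other T cell markers with smaller shares, the class rule and the cells cannot be told apart. Of 21 activation genes, 18 had larger shares, 6 of them in each library, among them BATF, a transcription factor of effector differentiation (25%, 56.2%, 48% and 44.1% against 12.7%, 26%, 27.4% and 14.1%). MYC, a driver of cell growth, was seen in fewer T-marked high-gene cells (8.57% against 19.2%).

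**Figure D3:**
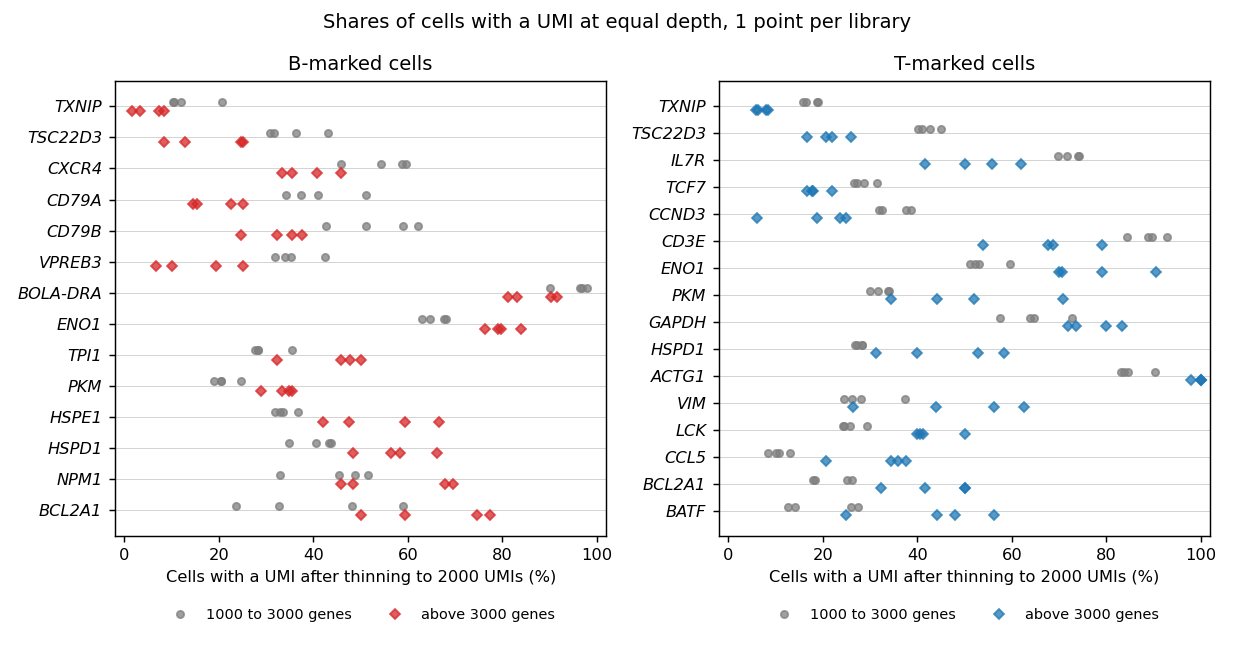
Percent of cells with at least 1 UMI of a gene after every cell was thinned to 2000 UMIs, for B-marked cells on the left and T-marked cells on the right, with 1 point per library. Coloured diamonds are cells above 3000 genes and grey circles cells of 1000 to 3000 genes. TXNIP lies lower and ENO1 higher in the cells above 3000 genes of both classes in all 4 libraries.

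The largest ratios of summed UMIs came from few cells and not from the broad differences above. In T-marked cells, 60 of 7206 genes (0.833%) were at least 2-fold higher and 15 (0.208%) at least 2-fold lower in all 4 libraries, and against T-marked cells of 2000 to 3000 genes 25 were higher, all among the 60, and 0 lower. CCDC88A, an actin-binding protein, led with 104, 64, 175 and 208 CPM against 1.7, 0.375, 1.01 and 1.9 CPM, and its UMIs came from 12 of 140 cells, with 1 cell holding all of them without LPS and all of them at 2 h. BOLA-DRA had 1271, 185, 831 and 790.2 CPM against 26.5, 26.1, 20.3 and 17.7 CPM, and its highest cell held 96.6%, 85.1%, 37.3% and 31.2% of the UMIs of the library. FABP5, a fatty acid-binding protein, had 512, 334, 988 and 1716 CPM against 19.4, 27.1, 36.9 and 31.8 CPM, and its highest cell held 77.9%, 97.8%, 38.2% and 40.6%. GZMB, the cytotoxic protease granzyme B, came from 21 of 140 cells, with 98.2% of its 2 h UMIs in 1 cell. Of the 10 genes with the largest ratios, 9 had a library in which 1 cell held at least 90% of the UMIs. With the highest cell of each library left out for each gene, 16 of the 60 genes were still past 2-fold, although this step takes more from the 140 high-gene cells than from the 4806 mid-range cells.

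Without the 10 T-marked cells of a cluster led by FSCN1 (below), 23 of the 60 genes were still past 2-fold. The mean log2 ratio then became -0.44 for CCDC88A, -0.91 for FSCN1, an actin-bundling protein of mature dendritic cells, and -0.16 for CD74, the class II invariant chain. At equal depth, without these cells, ENO1 was seen in 79.2% of the remaining 130 T-marked cells, CCL5 in 31.5%, BATF in 44.6% and IL7R in 56.9%. The share with BOLA-DRA went from 11.4% to 4.62%, beside 4.29% in mid-range T-marked cells.

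Over all high-gene cells the leading genes were also carried by few cells. GZMB had 70.7, 217, 65.7 and 30.7 CPM against 8.61, 10.1, 23.3 and 2.8 CPM and came from 25 of 493 cells. CCL22, a chemokine of activated dendritic and B cells, had 37.6, 88.7, 114 and 88.4 CPM against 13.1, 18.8, 14.1 and 20.5 CPM and came from 47 cells. MCM2 was spread more widely, over 85 cells, at 20.3, 11.9, 12.7 and 35.3 CPM against 3.68, 3.66, 3.65 and 4.27 CPM. PPP1R14A, a phosphatase inhibitor, RASSF4, a Ras-association protein, and PTGIR, the prostacyclin receptor, were 2-fold higher in every library but lower, at mean log2 ratios of -1.97, -1.37 and -1.48, once the FSCN1 cluster and a cluster with CXCL8 were left out. Among the lower genes, IFITM10 had 7.52, 8.61, 8.79 and 9.06 CPM against 41.8, 44.6, 40.1 and 41.2 CPM and VSTM2L 5.26, 6.62, 6.36 and 7.12 CPM against 34.2, 30.4, 34.7 and 38.5 CPM. These 2 genes were lower by a similar factor in every library, with SDs of 0.13 and 0.182 (log2), and came from 59 and 46 of the high-gene cells. S100A9, a calcium-binding protein of neutrophils and monocytes, had 8.27, 3.97, 7.88 and 14.6 CPM against 105, 21.5, 11 and 94.5 CPM.

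Clustering of the 493 cells on their own gave 9 clusters. Genes that lead a cluster were used to form it, so their values only say what the cluster is. The largest cluster, with 95 cells, held 83 mixed cells and 72 cells of the CD3E and MS4A1 definition (75.8%) and stayed unnamed. 2 clusters of 76 and 65 cells were T-like, with all 12 T cell markers met, and held 129 of the 140 T-marked cells. The first was led by IL17A, GNLY and IL17F and met 8 NK cell markers, with GNLY, granulysin, at 1356 CPM against 52.4 CPM in the other high-gene cells. GNLY was found in 44.7% of its cells. IL17A was found in only 2.63% and IL17F in 9.21%, with 71.4% and 89.6% of their UMIs in 1 cell. The second was led by KLRJ1 and GZMB, and included ADA, adenosine deaminase, in 69.2% of its cells. KLRJ1 was found in only 7.69% of them and GZMB in 16.9%, with 44.3% and 54.6% of their UMIs in 1 cell.

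4 clusters were B-like and were spread unevenly over the libraries. A cluster of 70 cells led by MCM2, MMP28 and TUBB, with tubulin in 90% of its cells, took 6.76%, 1.18%, 3.93% and 36.5% of the high-gene cells of the 4 libraries, so 57 of its cells came from 8 h. A cluster of 52 cells led by BCL2L15, LCN2 and JCHAIN, the joining chain of secreted IgM and IgA, took 24.3%, 23.5%, 4.49% and 3.85%. It met 9 B cell and 5 plasma cell markers, and JCHAIN stood at 483 CPM against 55.3 CPM in the other high-gene cells. A cluster of 34 cells led by IFIT2, ISG15 and MX2 held 33 cells of the 4 h library and 1 of the 2 h library, and ISG15 stood at 7882 CPM against 1111 CPM in the other high-gene cells. A count of 0, read with a limit of 3 counts in place of an exact interval, allows a share of up to 4.05% without LPS and 1.92% at 8 h for this cluster. The cluster of 40 cells led by DTX1, a regulator of Notch signalling, was more even, with 5.41%, 10.6%, 10.1% and 5.77%. Since 1 library stands for each time, a cluster from mostly 1 library may mark that library rather than its treatment.

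The last 2 clusters had myeloid genes, and monocyte markers were the most numerous in one and granulocyte markers in the other. By the naming rule they were monocyte-like and granulocyte-like. They were left unnamed here because their leading genes belong to several classes. The FSCN1 cluster, with 44 cells (14, 7, 13 and 10), was led by FSCN1, TAP, an antimicrobial peptide, and PPP1R14A, and met 6 monocyte, 5 plasma cell and 4 dendritic cell markers. Its monocyte list summed to 633 CPM against 125 CPM in the other high-gene cells, so the label of non-monocytes is in doubt for these 44 cells. FLT3, the receptor of dendritic cell growth, stood at 31.9 CPM against 0.612 CPM in the other high-gene cells, and CLEC9A and XCR1, markers of cross-presenting dendritic cells, had no UMI in any high-gene cell. At 2000 UMIs, BOLA-DRA was seen in 97.7% of its cells, BASP1 in 84.1%, IL1B in 70.5%, FCER1G, the Fc receptor gamma chain, in 61.4% and LYZ in 15.9%. Of its cells, 10 were T-marked, 9 B-marked, 6 mixed and 19 neither. It took 18.9%, 8.24%, 7.3% and 6.41% of the high-gene cells, with the largest share without LPS.

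The CXCL8 cluster had 17 cells, 9 from 4 h and 8 from 8 h, of which 13 were B-marked. CXCL8, the neutrophil chemoattractant, stood at 8275 CPM against 149 CPM in the other high-gene cells. At 2000 UMIs, CXCL8 and CXCL2 were seen in 100% of its cells, IL1RN, the interleukin 1 receptor antagonist, in 88.2%, and MS4A1 in 64.7%. It met 6 granulocyte, 5 B cell and 4 monocyte markers, and the granulocyte list summed to 251 CPM against 29.7 CPM. None of its cells met the CD3E and MS4A1 definition, which cannot see a droplet with a B cell and a granulocyte. Whether these 17 droplets held 2 cells was not tested.

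**Figure D4:**
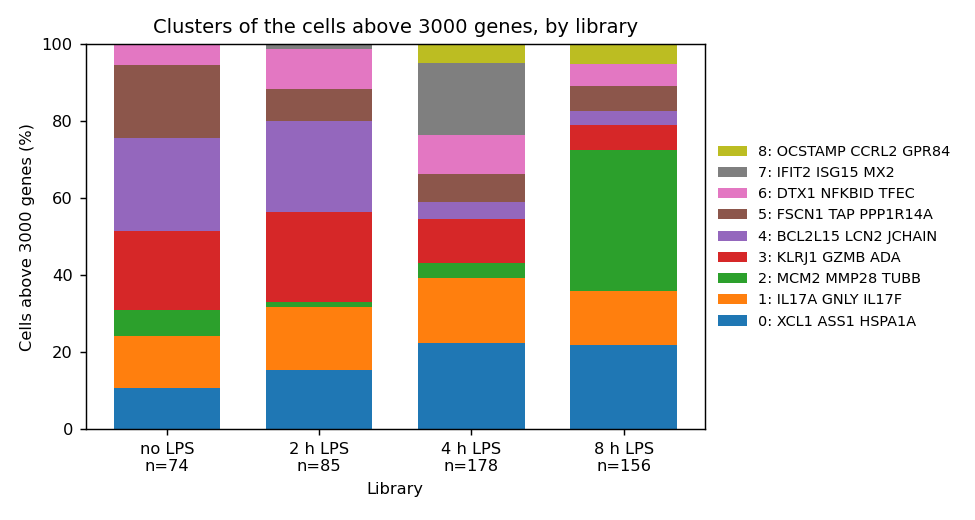
Share of the cells above 3000 genes that fell into each of the 9 clusters, as stacked bars for the 4 libraries, with the 3 leading genes of each cluster in the legend. Cluster 2 (MCM2) takes 36.5% of the 8 h bar, cluster 7 (IFIT2) 18.5% of the 4 h bar, and cluster 4 (BCL2L15) 24.3% and 23.5% of the bars without LPS and at 2 h.

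Between times, interferon-stimulated genes peaked at 4 h in high-gene cells of both classes. In B-marked high-gene cells, ISG15, a ubiquitin-like protein induced by interferon, was seen at equal depth in 16.7%, 29%, 91.5% and 46.4%, and in 15.3%, 46.3%, 77.9% and 39% of B-marked mid-range cells. The 4 h interval was 81.3 to 97.2% and that without LPS 4.74 to 37.4%. In T-marked high-gene cells it was seen in 20.8%, 50%, 68% and 17.6%, against 7.81%, 18.9%, 48.2% and 15.5% of mid-range cells. MX1, a GTPase that restricts viruses, was seen in 16.7%, 35.5%, 64.4% and 23.2% of B-marked and 8.33%, 12.5%, 44% and 8.82% of T-marked high-gene cells. IFIT3 had 2.26, 15.9, 127 and 10 CPM over all high-gene cells and was found in 3, 15, 106 and 28 cells, with 4.52% of its 4 h UMIs in the highest cell. All 3 genes were highest at 4 h.

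Of 26 interferon-stimulated genes in the files, 20 had at least 200 UMIs in the high-gene cells without LPS and at 4 h together, and 18 of these were at least 2-fold higher at 4 h, where 3.58% of the 2819 genes tested were at least 2-fold higher and 1.63% at least 2-fold lower. Their median log2 ratio was 2.56, and that of the same genes in mid-range cells 2.23. A gene could pass the UMI limit through a high level at 4 h alone. The count of 18 of 20 is therefore in part set by the limit, and the 6 other genes are not counted as unmoved. At 2 h, 3 of 8 such genes were at least 2-fold higher, beside 2.33% of 1801 genes higher and 0.888% lower. At 8 h, 1 of 10 was, beside 1.61% of 2664 genes higher and 2.33% lower. All 3 times were set against the same library without LPS.

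The activation genes described here were highest at 2 h or 4 h. BATF was seen in 25.7%, 63.5%, 53.4% and 40.4% of all high-gene cells, against 15.9%, 30.9%, 31.5% and 18.8% of mid-range cells, and BCL2A1 in 40.5%, 61.2%, 66.3% and 55.1% against 19.8%, 36.5%, 34.3% and 25.6%. CD83, a surface protein of activated B cells and mature dendritic cells, was seen in 37.5%, 64.5%, 61% and 39.1% of B-marked high-gene cells and 18.6%, 57.7%, 48.7% and 32.5% of B-marked mid-range cells. NFKBIA, the inhibitor that NF-kappaB induces against itself, was seen in 33.3%, 62.5%, 66% and 47.1% of T-marked high-gene cells, with 35%, 62.1%, 54.9% and 45% in mid-range cells. Of 32 activation genes in the files, 16 passed the UMI limit at 2 h, and 11 of these were at least 2-fold higher in high-gene cells. Over all 1801 genes tested, 2.33% were higher and 0.888% lower. The median log2 ratio of the 16 genes was 1.35, and 1.31 in mid-range cells. A gene could pass the limit through a high level at 2 h alone, so this count is in part set by the limit.

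**Figure D5:**
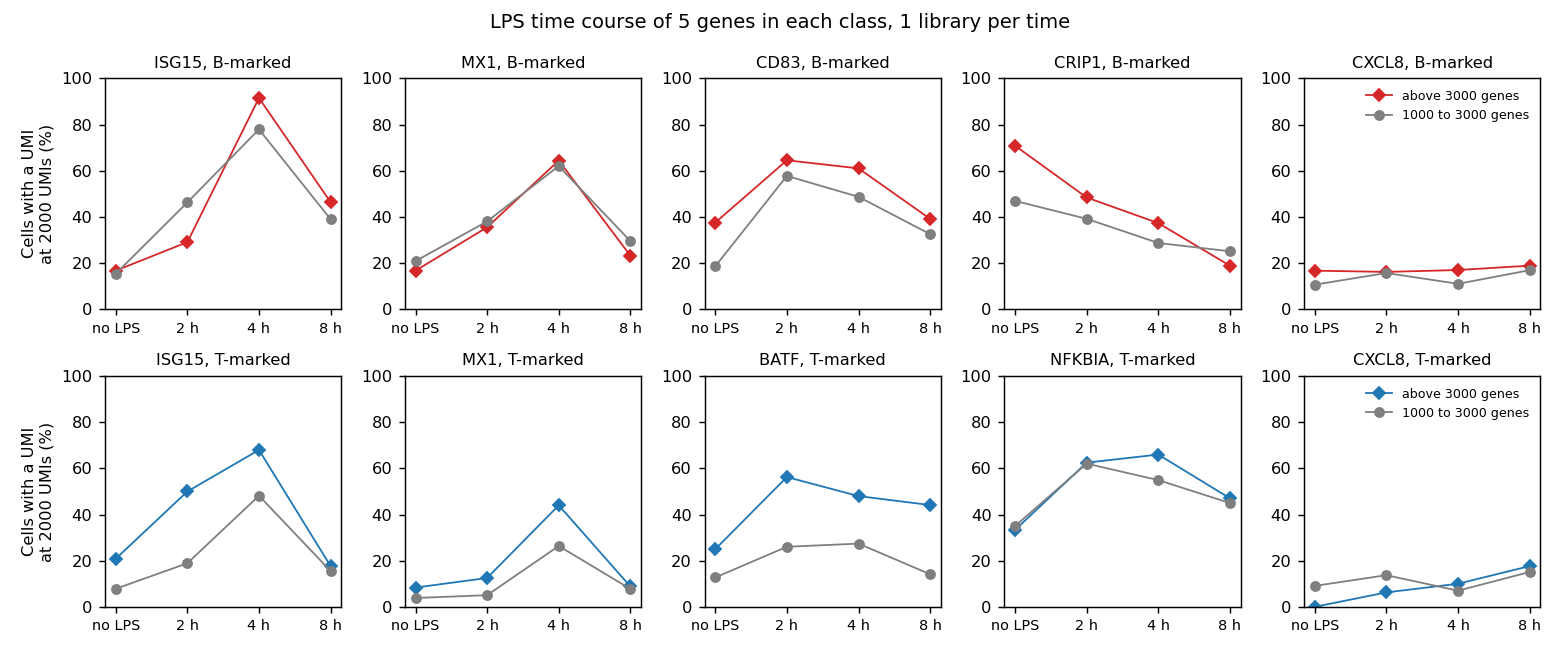
Percent of cells with at least 1 UMI at 2000 UMIs per cell for 5 genes in B-marked cells (top) and 5 in T-marked cells (bottom), over the 4 libraries. Coloured diamonds are cells above 3000 genes and grey circles cells of 1000 to 3000 genes. ISG15 and MX1 are highest at 4 h in both, CRIP1 goes from 70.8% to 18.8% in B-marked cells above 3000 genes, and CXCL8 is at most 18.8% in B-marked cells above 3000 genes.

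The ratios of chemokine and interleukin 1 genes to no LPS were in part carried by few cells or by 2 clusters. CXCL8 had 21.8, 103, 881 and 485 CPM over all high-gene cells and was found in 19, 37, 70 and 76 of them. At equal depth it was seen in 6.76%, 10.6%, 14% and 16.7% of high-gene and 10.7%, 15.8%, 9.68% and 19.9% of mid-range cells. In T-marked mid-range cells it was seen in 9.06%, 13.7%, 6.99% and 15.1%, and the source of these UMIs was not tested. With the FSCN1 and CXCL8 clusters left out, the log2 ratio of CXCL8 at 4 h went from 5.27 to 2.71, beside 1.44 in mid-range cells. IL1RN had 7.52, 145, 464 and 123 CPM, and its log2 ratio at 4 h went from 5.77 to 3.99. CCL3, a macrophage inflammatory chemokine, had 23.3, 581, 341 and 225 CPM, with 74.6% of the 2 h UMIs in 1 cell. CCL2 in B-marked cells had 85.6, 915, 9.98 and 34.2 CPM, with 98.1% of the 2 h UMIs in 1 cell. IL17F, a cytokine of type 17 T cells, had 0.752, 162, 8.79 and 199 CPM over all high-gene cells and was found in 1, 6, 2 and 2 cells.

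TAP and CCL8 had no UMI in the 24 T-marked cells without LPS, and their levels under LPS came from at most 3 and 5 cells of a library, so no fold is given for them.

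Some genes of B-marked high-gene cells had lower levels under LPS. In B-marked high-gene cells, CRIP1, a zinc-binding LIM protein, was seen at equal depth in 70.8%, 48.4%, 37.3% and 18.8%, against 46.9%, 39.1%, 28.7% and 25.1% of B-marked mid-range cells. The interval without LPS was 48.9 to 87.4% and that at 8 h 10.4 to 30.1%. GPX1, a glutathione peroxidase, was seen in 54.2%, 22.6%, 16.9% and 14.5%, against 38.7%, 25.6%, 18.4% and 26.3%. VIM, the intermediate filament vimentin, was seen in 37.5%, 41.9%, 5.08% and 4.35%, against 24.7%, 15.8%, 12.3% and 14.4%. JCHAIN was seen in 33.3%, 9.68%, 5.08% and 10.1%, against 8.27%, 6.07%, 6.09% and 7.2%, and its share at 2 h was already below that without LPS. The cluster led by BCL2L15, LCN2 and JCHAIN, in which JCHAIN was highest, went from 24.3% to 3.85% of the high-gene cells over the same libraries, and its part in these levels was not tested.

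FCER1G and BOLA-DMA had lower levels over all high-gene cells under LPS. FCER1G had 412, 147, 127 and 52.1 CPM, and its log2 ratio at 8 h of -2.96 became 0.10 without the FSCN1 and CXCL8 clusters. BOLA-DMA, a class II peptide loader, had 120.3, 72.8, 35.7 and 61.5 CPM, while at equal depth it was seen in 16.2%, 17.6%, 4.49% and 17.3% of high-gene cells. CD74 differed less between times, with 64.9%, 57.6%, 66.9% and 66%. The FSCN1 cluster itself was 18.9% of the high-gene cells without LPS and 6.41% at 8 h.

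In T-marked high-gene cells, DUT and LCK had lower levels under LPS and RGS1 higher ones. DUT, which removes dUTP before DNA synthesis, had 673, 583, 461 and 301 CPM, a log2 ratio of -1.16 at 8 h, beside -0.53 in mid-range T-marked cells, and was found in 23 of 24, 31 of 32, 43 of 50 and 31 of 34 cells. LCK had 364, 261, 218 and 183 CPM, a log2 ratio of -0.99 at 8 h, beside -0.48. RGS1, a regulator of G protein signalling in activated lymphocytes, had 194, 663, 525 and 378 CPM, and its log2 ratio at 2 h was 1.77 beside 1.43 in mid-range cells. NPM1 had 408, 177, 213 and 261 CPM, but 1 cell held 48% of its UMIs without LPS.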

How the data were processed

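The deposited data were 4 single-cell RNA libraries as raw count matrices of UMIs per gene and barcode, made by the authors with Cell Ranger, and the submitters' processing notes name ARS-UCD1.2 and bosTau9. The matrices hold 21861 gene rows with 21778 names, and 83 rows that repeat a name were added to the row of that name. Chromatin accessibility data of the series were not used here. No column of another series was present (0 columns). The authors state limits on genes and mitochondrial share for their own analysis, and these were not applied here because the cells described lie above the gene limit.

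The cells, marker lists and thresholds were chosen with earlier results of these data known. UMIs were summed per library and cell class and scaled to CPM. A gene was past the fold at a log2 ratio of at least 1 with a pseudocount of 1 CPM, in all 4 libraries for high-gene against mid-range cells, among genes with at least 200 UMIs. Depth was made equal by drawing 2000 UMIs per cell without replacement, once, and cells with fewer were left out. No test was run, since each treatment has 1 library and the high-gene cells were chosen on gene number and marker limits. Shares have exact binomial 95% intervals, which cover counting error only, and a count of 0 was given the limit of 3 counts in place of an exact interval. No doublet caller was run, and doublets were counted from CD3E and MS4A1 alone. For clustering, cells were scaled to 10000 UMIs and ln(x + 1), with 2000 variable genes, 30 principal components, 15 neighbours and Leiden resolution 1. A cluster took a name from at least 3 markers of a class seen in at least 10% of its cells at 1.5 times the level elsewhere, where no other class had as many. This rule called the FSCN1 cluster monocyte-like and the CXCL8 cluster granulocyte-like, and these 2 names were set aside after the clusters were seen.

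Genes were named where they led a comparison (the 10 largest mean ratios in each direction, or 5 for an LPS time), belonged to a list or led a cluster, and which of these are described was chosen after their values were seen. Ratios and thinning were checked on simulated data. Alternatives were other gene, UMI, purity and mitochondrial limits, comparison cells, doublets left out, TMM (edgeR 4.0.16) and DESeq2 1.42.0 size factors, cell weights and pseudocounts. The step without the highest cell, the step without 2 clusters and the expected minimum of 20 UMIs were added after seeing the data. Scripts used Python 3.11.15 with scanpy 1.11.5, leidenalg 0.10.2, scipy 1.17.1, numpy 2.4.6 and pandas 2.3.3.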

Additional observations from a re-analysis of the deposited data

Results flagged for a closer look

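Chaperone genes had opposite directions between times in the T-marked and B-marked high-gene cells. Their median log2 ratio against no LPS was -0.26 in T-marked and 0.22 in B-marked cells at 2 h. At 4 h the T-marked value was -0.31 and the B-marked value 0.32. At 8 h they were -0.37 for T-marked and 0.16 for B-marked cells. Over all genes tested, the medians at 2 h, 4 h and 8 h were -0.016, -0.062 and -0.082 in T-marked high-gene cells. In B-marked ones they were -0.028, 0.058 and 0.079. The same chaperones had medians of 0.16, 0.19 and -0.019 in T-marked mid-range cells and 0.53, 0.47 and 0.27 in B-marked mid-range cells. Glycolysis genes differed in the same way at 8 h, at -0.47 in T-marked and 0.16 in B-marked cells, beside -0.066 and 0.15 in mid-range cells. Each pair was picked out because the 2 classes lay on opposite sides of 0. With 1 library per treatment the difference was not tested, and the 3 times share the library without LPS. That library held only 24 T-marked and 24 B-marked high-gene cells, and the part of single cells in these medians was not tested.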

How the results depend on the processing

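No paired analysis between times was possible because each treatment has 1 library. High-gene and mid-range cells were compared within each library, without a test because the choice of cells set them apart. The small number of cells per library, 74 to 178, limits each value here, and a gene carried by few cells moves with 1 of them. High-gene cells were 4.78% of all barcodes when the limit was 2500 genes and 0.504% when it was 3500, in place of 1.6%. The doublet share was 27.2% with at least 1 UMI of both genes, 16.2% with 3, 1.42% at 2000 UMIs, 13% with T and B sums of at least 5, and 25.2% above 3500 genes. Shares of T-marked, B-marked, mixed and other cells were 22.5%, 32.7%, 19.9% and 24.9% with at least 10 UMIs, 29.4%, 38.9%, 24.5% and 7.1% with at least 3, 30.8%, 42.4%, 16.4% and 10.3% with limits of 80% and 20%, 0.811%, 5.68%, 3.85% and 89.7% at 2000 UMIs and 30.3%, 34.2%, 28.4% and 7.1% above 3500 genes. At 4000 UMIs the median genes were 1392 and 1314 in high-gene and mid-range cells, and without the marker limits mid-range cells had 822.

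Genes at least 2-fold apart from mid-range cells were 24 higher and 127 lower for all cells, 5 higher and 30 lower for B-marked cells and 54 higher and 24 lower for T-marked cells without the marker limits. They were 2 higher and 3 lower for all cells, 1 higher and 1 lower for B-marked cells and 25 higher and 0 lower for T-marked cells against 2000 to 3000 genes. They were 5 higher and 4 lower for all cells, 0 higher and 3 lower for B-marked cells and 37 higher and 2 lower for T-marked cells with a pseudocount of 10 CPM, 34 higher and 32 lower for all cells, 17 higher and 40 lower for B-marked cells and 116 higher and 44 lower for T-marked cells with no UMI minimum, and 12 higher and 17 lower for all cells, 0 higher and 6 lower for B-marked cells and 20 higher and 2 lower for T-marked cells with at least 20 UMIs expected. They were 9 higher and 75 lower for all cells, 0 higher and 70 lower for B-marked cells and 16 higher and 49 lower for T-marked cells without the highest cell, which takes more from the smaller group by construction, and 12 higher and 72 lower for all cells, 1 higher and 33 lower for B-marked cells and 34 higher and 15 lower for T-marked cells without the FSCN1 and CXCL8 clusters. B-marked cells had 15 lower with DESeq2 size factors and 42 with cells weighted equally. Against no LPS, genes past 2-fold were 14 higher and 12 lower at 2 h, 55 higher and 21 lower at 4 h, 36 higher and 47 lower at 8 h above 3500 genes, 751 higher and 877 lower at 2 h, 723 higher and 777 lower at 4 h, 679 higher and 763 lower at 8 h with no UMI minimum, 31 higher and 10 lower at 2 h, 118 higher and 31 lower at 4 h, 51 higher and 50 lower at 8 h without the highest cell and 35 higher and 7 lower at 2 h, 66 higher and 25 lower at 4 h, 25 higher and 47 lower at 8 h without the 2 clusters. Resolutions 0.5 and 2 gave 5 and 19 clusters.

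Mean log2 ratios to mid-range cells reversed without the 2 clusters for PPP1R14A 2.27 to -1.97, RASSF4 1.98 to -1.37, PTGIR 1.92 to -1.48 over all cells, and for CCDC88A 5.87 to -0.44, BASP1 4.66 to -0.23, FSCN1 4.21 to -0.91, CD74 3.49 to -0.16, GRASP 3.42 to -0.11 in T-marked cells. Log2 ratios to no LPS reversed without them for CTSS -1.49 to 0.19, FCER1G -1.48 to 2.01, GSN -1.30 to 0.79 (2 h), IL18BP 4.75 to -0.14, FCER1G -1.69 to 0.77 (4 h) and FCER1G -2.96 to 0.10, TAP -2.71 to 1.34 (8 h) over all cells, for CCL2 3.4 to -2.36 (2 h), PTX3 4.28 to -1.76, GRO1 3.91 to -0.65 (4 h) and CCL3 3.78 to -0.32, PTX3 3.74 to -0.026 (8 h) in B-marked cells, and for BLA-DQB -2.35 to 0.67 (2 h) and FABP5 1.74 to -1.70, HSPA5 1.46 to -0.15, CSTB 1.45 to -0.39 (8 h) in T-marked cells. Without the highest cell they reversed for TAP -2.71 to 1.62 (8 h, all), CCL2 3.4 to -2.07 (2 h, B-marked) and GZMB 1.47 to -3.44, BLA-DQB -2.35 to 0.74 (2 h, T-marked). Above 3500 genes they reversed for IL17F 6.83 to -1.24, TAP -2.71 to 2.17 (8 h, all), CCL2 3.4 to -2.51, IL1B 3.30 to -0.015, CXCL2 3.28 to -0.015 (2 h, B-marked) and IL17F 8.18 to -2.87 (8 h, T-marked), and the median of inflammatory genes at 2 h went from 2.06 to -0.91. TAP at 8 h became 2.77 with doublets left out. The cause of each was not tested. Of the values for single genes and class counts, 1425 kept their direction and size, 280 moved and 35 reversed. Of the list medians, 1265 stayed, 152 moved and 1 reversed. Against cells of 2000 to 3000 genes, 27 list medians stayed and 15 moved. Of the shares by library, 64 stayed and 48 moved.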
